A study of Rattus norvegicus with 9 samples.

Results

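The expression of 7 genes of Schwann cells and their myelin was followed in female Sprague-Dawley rats, in a muscle of the pelvic floor called pubococcygeus: Sox10, Egr2, Mbp, Pmp22, Prx, Mag and S100b. They were chosen by name, each matched 1 row, and they make 7 of the 30518 rows of the expression table and 7 of the 16256 genes that passed the filter on low counts, so no member was lost. The study allotted 24 rats to 3 groups of 8, and 3 RNA sequencing libraries per group are analysed here. Blank rats had no procedure of any kind. SUI rats, named for stress urinary incontinence, lost both ovaries and had the vagina distended for 4 h by an 8 Fr balloon catheter that held 3 mL of saline and carried a 120 g weight, and were not treated afterwards. Stimulated rats had the same operation and, from 1 week later, transvaginal pelvic floor electrical stimulation (PFES) with pulses of 200 µs at 50 Hz and 20 mA, given for 30 min a day, 5 days weekly, for 2 weeks. The names of the SUI libraries read sham, whereas their titles and the study's design describe the full operation without treatment; the titles were followed, and every SUI value rests on them. By that description ovary removal and distension always came together and no group had a mock operation or mock stimulation, so the parts of each procedure cannot be told apart. Ages are not given in the sources used here. Nothing ties the 3 libraries of a group to separate rats, so p-values measure the spread between libraries, which may be technical.

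Schwann cells are the glia of peripheral nerve. In a muscle they ensheathe the motor and sensory axons of the nerve branches that run between the fibres, and terminal Schwann cells cover the neuromuscular junction. A myelinating Schwann cell is switched on by SOX10, which acts with POU-domain factors to induce EGR2 (also called KROX20), and the latter turns on the genes of compact myelin. RNA of the whole muscle was measured, so fewer Schwann cells, less RNA per Schwann cell and a change in RNA of other cells cannot be told apart.

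None of the 7 genes passed an adjusted p of 0.05 in any comparison in edgeR, and the data on them are mainly a description of 9 libraries. All 6 members other than Sox10 had a negative fold change in SUI against blank libraries. Egr2 was the member with the largest difference that did not overlap between groups, at 0.794 ± 0.239 CPM in SUI against 2.28 ± 1.30 in blank libraries (mean ± SD, n = 3 each). CPM are read counts scaled to a common library size with TMM factors. Within every group the libraries differed for most members at once, and the library numbered 2 of the SUI group was lowest of all 9 for 5 of the 7 genes.

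Depth ran from 50833480 counts in blank 1 to 147650284 in stimulated 1. Blank 1 stood apart from the other 8 libraries: 32.9% of its counts were mitochondrial, against 13.4% to 17.7%, and it had the lowest median correlation to the rest, 0.920. Muscle was present in every library, with the skeletal actin gene Acta1 at 30213 to 59464 CPM and the creatine kinase gene Ckm at 12534 to 27431 CPM. All libraries carry 1 batch label. Prx, which adult peripheral nerve makes mainly in myelinating Schwann cells, was at 5.70 to 15.3 CPM. Sox10, Mbp, Mag and S100b are also used by other cell types, and which cells made the Egr2 RNA was not tested. The melanocyte genes Tyr, Dct and Tyrp1, 3 of 5 on that list, had 0 counts in all 9 libraries, and the 5 summed to 0 to 0.225 CPM in blank, 0.108 to 0.154 in SUI and 0.160 to 0.638 in stimulated libraries. The 5 oligodendrocyte markers, none of which was at 0 in every library, summed to 0.197 to 0.450 CPM in blank, 0.0994 to 0.226 in SUI and 0.133 to 0.206 in stimulated libraries.

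Levels between genes were compared as FPKM, which divides by gene length. Pmp22, a tetraspan protein of compact myelin, was highest with a mean of 18.2 ± 6.71 FPKM (SD, n = 9), at percentile 88.6 of the tested genes. Mbp followed at 5.53 ± 2.21 FPKM, then S100b at 2.81 ± 1.47 and Prx at 1.46 ± 0.582. Egr2 was at 0.361 ± 0.190, Sox10 at 0.198 ± 0.111 and Mag at 0.102 ± 0.0827 FPKM, the last at percentile 12.0. The genes for structural and cytosolic proteins thus lay above those for the regulators, with Mag as the exception. Pmp22 exceeded Mbp and Mbp exceeded S100b in 9 of 9 libraries, although the ranges of each such pair overlapped across libraries. The only neighbours in this order whose ranges did not overlap were Prx and Egr2, by the narrow step from 0.771 to 0.764 FPKM, both in blank 1. S100b exceeded Prx in 7 of 9 libraries, Egr2 exceeded Sox10 in 7 of 9, and Sox10 exceeded Mag in 6 of 9, so the lower places of the order are within the spread.

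The deposited table places the genes in build mRatBN7.2 as follows. Sox10 (ENSRNOG00000011305) spans chr7:110725274-110735544 on the minus strand, and Egr2 (ENSRNOG00000000640) chr20:21051277-21055562, also minus. Mbp (ENSRNOG00000016516) spans chr18:75855878-75966404 and Pmp22 (ENSRNOG00000003338) chr10:47795709-47825714, both on the plus strand. Prx (ENSRNOG00000018369) spans chr1:82786815-82807407, plus, Mag (ENSRNOG00000021023) chr1:86148228-86163656, minus, and S100b (ENSRNOG00000001295) chr20:12372881-12381781, minus. Prx and Mag thus share a chromosome, as do Egr2 and S100b.

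Promoter windows of 250 bases before the annotated start were read for the members from RefSeq, build GRCr8, and 6 of the 7 genes matched. Sox10 was not among them. Each window was searched on both strands for a SOX match (ACAAAG or ACAATG), an EGR match (GCGTGGGCG or GCGGGGGCG) and a CArG box, the site of serum response factor that stands before many activity-induced genes. Egr2 and Pmp22 are shown because they had the 2 smallest p-values among the members in SUI over blank, and Mag because its window holds a SOX match. Sequences run 5′ to 3′ on the strand of the gene, and capitals mark a match.
Egr2, chr20:21054442-21054691, minus strand: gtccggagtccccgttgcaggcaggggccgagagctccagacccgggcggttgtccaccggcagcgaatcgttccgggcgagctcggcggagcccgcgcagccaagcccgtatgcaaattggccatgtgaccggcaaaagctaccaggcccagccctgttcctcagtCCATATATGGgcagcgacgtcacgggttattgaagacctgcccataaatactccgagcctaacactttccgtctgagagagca
Pmp22, chr10:48294682-48294931, plus strand: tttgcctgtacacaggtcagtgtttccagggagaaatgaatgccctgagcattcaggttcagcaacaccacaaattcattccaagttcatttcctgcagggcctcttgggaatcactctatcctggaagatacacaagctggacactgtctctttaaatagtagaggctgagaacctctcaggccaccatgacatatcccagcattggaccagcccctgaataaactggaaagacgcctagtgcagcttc
Mag, chr1:95291045-95291294, minus strand: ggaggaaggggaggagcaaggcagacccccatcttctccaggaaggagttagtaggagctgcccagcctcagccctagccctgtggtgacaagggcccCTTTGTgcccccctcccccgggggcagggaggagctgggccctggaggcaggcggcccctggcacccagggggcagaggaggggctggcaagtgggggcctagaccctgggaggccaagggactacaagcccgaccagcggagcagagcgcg
The capitals in Egr2 are a CArG box, CCATATATGG, 83 to 74 bases before the start, and 1.5% of 33469 RefSeq promoter windows of this length hold one. The capitals in Mag, CTTTGT, are a SOX match read on the opposite strand, 152 to 147 bases before the start, and 25.3% of all windows hold such a match. One of 2 Mbp windows held 3 SOX matches, and no match of any of these motifs was found in the Pmp22, Prx and S100b windows. No member's window held an EGR match, which 2.85% of all windows do. None of these matches overlapped another, and a match or its absence here describes letters in a short window only. Mbp and Pmp22 are known to have alternative starts, and the windows shown may not lie at the one that Schwann cells use.

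**Figure D1:**
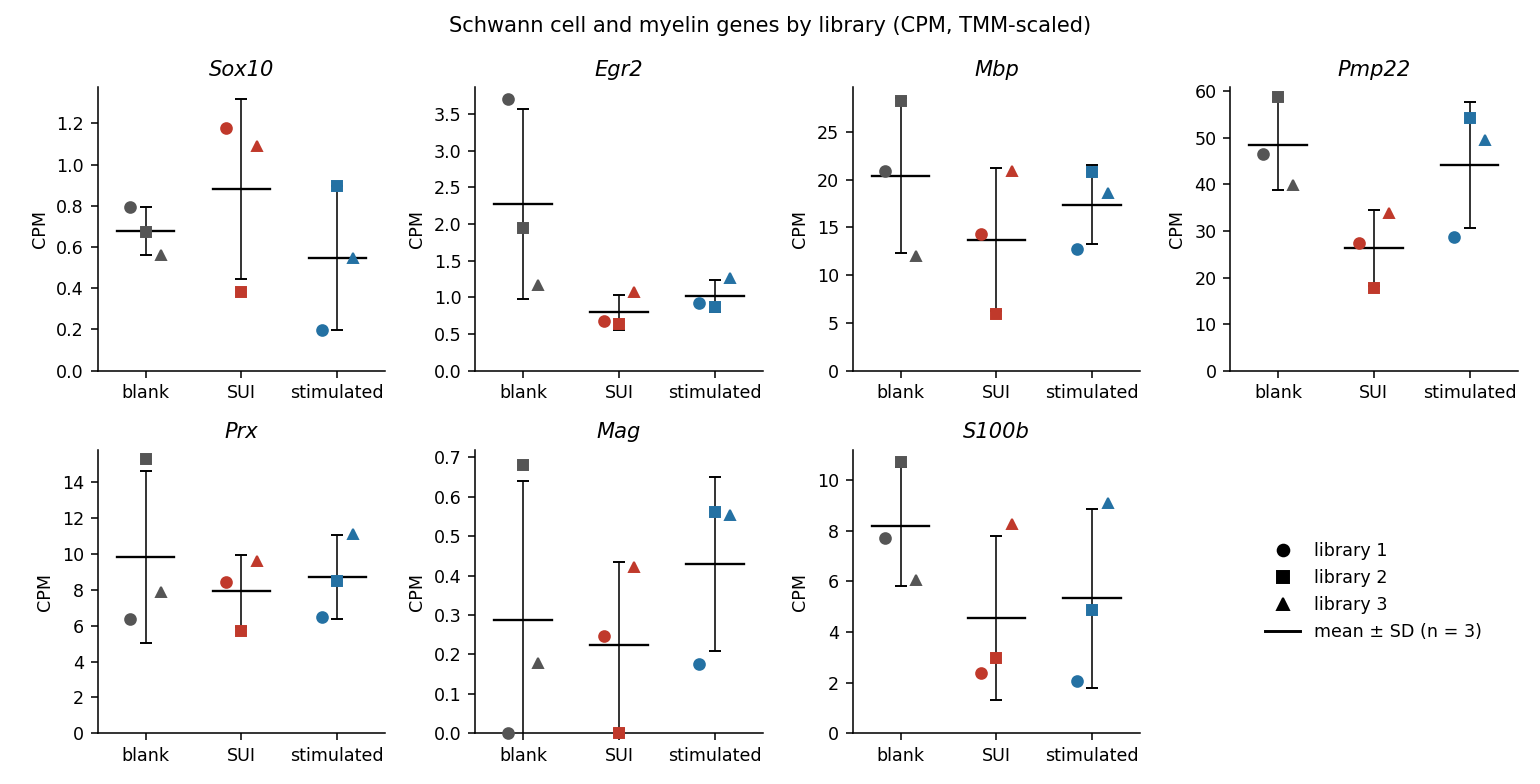
CPM of each of the 7 genes in the 9 libraries, 1 panel per gene with its own axis from 0, where the blank error bar of Mag is clipped; symbols give the library number, and bars the mean ± SD of 3 libraries. Egr2 and Pmp22 have every SUI library below every blank library in these CPM, and in the other 5 panels the groups overlap. In FPKM the Pmp22 groups overlap.

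Sox10, the transcription factor that all Schwann cells need from the neural crest onward, was at 0.794, 0.674 and 0.563 CPM in blank libraries 1, 2 and 3. It was at 1.18, 0.380 and 1.09 CPM in SUI libraries, and at 0.198, 0.897 and 0.545 CPM in stimulated libraries. The SUI and stimulated libraries thus spread on both sides of the blank ones, and all groups overlapped. Its log2 fold change was 0.39 ± 0.59 (SE) in SUI over blank, with an adjusted p of 0.831 in edgeR's quasi-likelihood test. It was -0.69 ± 0.59 in stimulated over SUI (adjusted p = 0.835) and -0.30 ± 0.59 in stimulated over blank (adjusted p = 0.939). These values rest on 26 to 133 counts per library.

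Egr2, the zinc finger factor that starts and maintains peripheral myelination, was at 3.71, 1.94 and 1.17 CPM in blank libraries. It was at 0.682, 0.633 and 1.07 CPM in SUI libraries and at 0.922, 0.869 and 1.26 CPM in stimulated libraries. Every SUI library was below every blank library, in CPM and in FPKM, and the stimulated libraries overlapped both groups. The log2 fold change was -1.51 ± 0.45 in SUI over blank, where edgeR gave an unadjusted p of 0.0080 and an adjusted p of 0.504. Over the alternatives tried, this adjusted p ran from 0.0824 with DESeq2 to 0.773. In stimulated over blank the log2 fold change was -1.15 ± 0.45, with an adjusted p of 0.898 in edgeR, and in stimulated over SUI it was 0.36 ± 0.44, with an adjusted p of 0.907.

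The highest Egr2 value belonged to blank 1, the library that stood apart. Without blank 1 the log2 fold change of SUI over blank was -0.96 ± 0.37 (edgeR adjusted p = 0.755) and that of stimulated over blank was -0.63 ± 0.37 (edgeR adjusted p = 1.0). Egr1 and Egr3, relatives of Egr2 that are induced within minutes by many stimuli, were looked at after their values were seen. Egr1 was at 64.7 CPM in blank 1 and at 6.04 to 26.2 CPM in the other 8 libraries, and Egr3 was at 0.847 CPM in blank 1 and at 0.0925 to 0.459 CPM in the others. These 3 genes were therefore at their highest in the same library, whose part in the Egr2 result beyond the values without it was not tested. Nab2, a corepressor that binds EGR proteins, was at 1.49 ± 0.272 CPM in stimulated against 2.77 ± 0.756 CPM in blank libraries, with a log2 fold change of -0.89 ± 0.37 (adjusted p = 0.898, edgeR).

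Mbp encodes myelin basic protein, which holds the cytoplasmic faces of the myelin membrane together. It was at 20.9, 28.3 and 12.1 CPM in blank libraries, at 14.3, 5.98 and 20.9 CPM in SUI libraries, and at 12.8, 20.8 and 18.6 CPM in stimulated libraries. SUI 2 was the lowest and blank 2 the highest of all 9, and the groups overlapped. Fold changes on the log2 scale were -0.57 ± 0.44 in SUI over blank (adjusted p = 0.697 in edgeR), 0.34 ± 0.44 in stimulated over SUI (adjusted p = 0.914) and -0.23 ± 0.44 in stimulated over blank (adjusted p = 0.934). Without SUI 2 the value for stimulated over SUI was -0.016, so that its sign rested on this library.

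Pmp22, whose gene dosage is altered in the commonest inherited demyelinating neuropathy, is also made by fibroblasts and epithelia. It was at 46.5, 58.8 and 39.8 CPM in blank libraries, at 27.4, 17.6 and 33.8 CPM in SUI libraries, and at 28.7, 54.2 and 49.6 CPM in stimulated libraries. All SUI libraries were below all blank ones in CPM, but in FPKM the groups overlapped, since SUI 1 at 16.2 exceeded blank 1 at 15.6. These 2 libraries had the extreme TMM factors of the 9, 1.30 in SUI 1 and 0.744 in blank 1. With library totals the log2 fold change of SUI over blank was -0.70 ± 0.38 (adjusted p = 0.773, edgeR). Stimulated 1 lay among the SUI libraries and the other stimulated libraries among the blank ones. The log2 fold change was -0.88 ± 0.31 in SUI over blank, with an unadjusted p of 0.0178 and an adjusted p of 0.551 in edgeR. It was 0.75 ± 0.31 in stimulated over SUI, with an unadjusted p of 0.0360 and an adjusted p of 0.579, and -0.13 ± 0.31 in stimulated over blank (adjusted p = 0.948). The 2 larger values both use the SUI libraries, so their opposite signs are not independent. They kept their direction in all 19 alternatives, from -1.10 to -0.65 and from 0.53 to 0.98. Their unadjusted p ran from 0.0078 to 0.112 and from 0.0090 to 0.162 over the edgeR, DESeq2 and limma fits. Both were thus under 0.05 in some fits only.

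Markers of fibroblasts, 6 in number and none at 0 in every library, were set beside Pmp22. They summed to 497 to 576 CPM in blank, 282 to 485 CPM in SUI and 287 to 918 CPM in stimulated libraries, with stimulated 2 highest. In SUI over blank 6 of 6 had a negative fold change and in stimulated over SUI 6 of 6 a positive one. In both edgeR called 0 of them, and DESeq2 and voom called 0. Of the 6, 1 and 2 had an unadjusted edgeR p under 0.05, beside 8.18% and 8.0% of all genes. Their part in the Pmp22 values was not tested.

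Prx encodes periaxin, which links the outermost myelin membrane to dystroglycan and the basal lamina. It was at 6.35, 15.3 and 7.89 CPM in blank libraries, at 8.42, 5.70 and 9.62 CPM in SUI libraries, and at 6.46, 8.50 and 11.1 CPM in stimulated libraries. Blank 2 stood above all others and the groups overlapped. The log2 fold change was -0.32 ± 0.36, 0.14 ± 0.36 and -0.18 ± 0.36 in SUI over blank, stimulated over SUI and stimulated over blank, and edgeR's adjusted p was 0.782, 0.973 and 0.938. Without blank 2 the first and last of these were 0.15 and 0.29, on the other side of 0.

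Mag encodes myelin-associated glycoprotein, an adhesion receptor on the inner membrane that faces the axon. It had 0, 88 and 18 counts in blank libraries, 28, 0 and 41 counts in SUI libraries, and 23, 80 and 71 counts in stimulated libraries. In CPM these are 0, 0.682 and 0.178 in blank, 0.248, 0 and 0.421 in SUI, and 0.175, 0.561 and 0.553 in stimulated libraries. The 0 in blank 1 allows up to 0.0794 CPM and that in SUI 2 up to 0.0271 CPM (3 counts per library, for counting error only). Mag was thus detected in all 3 stimulated libraries and in 2 of 3 of each other group, with overlap throughout. Its log2 fold changes of -0.43 ± 1.33, 0.95 ± 1.33 and 0.51 ± 1.32 in the order above had adjusted p of 0.923, 0.923 and 0.956 in edgeR. With voom and sample weights the first 2 were -2.79 ± 1.67 and 3.17 ± 1.59, with adjusted p of 0.523 and 0.316. No difference in Mag was detected in any comparison.

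S100b encodes a calcium-binding protein of the cytosol that marks Schwann cells of all kinds but is also made by adipocytes and chondrocytes. It was at 7.73, 10.7 and 6.07 CPM in blank libraries, at 2.40, 2.97 and 8.28 CPM in SUI libraries, and at 2.06, 4.86 and 9.09 CPM in stimulated libraries. SUI 3 and stimulated 3 lay among the blank libraries and the other 4 below them, so the groups overlapped. In log2 units the fold change was -0.85 ± 0.58 in SUI over blank (adjusted p = 0.669 in edgeR), 0.23 ± 0.58 in stimulated over SUI (adjusted p = 0.971) and -0.62 ± 0.58 in stimulated over blank (adjusted p = 0.899). Without SUI 3 the first was -1.61 ± 0.57 (adjusted p = 0.711, edgeR), and without stimulated 3 the last was -1.24 ± 0.61 (adjusted p = 0.995, edgeR).

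The adipocyte hormone gene Adipoq was highest in the same library of each group as S100b, at 16.7 CPM in blank 2, 25.1 CPM in SUI 3 and 33.6 CPM in stimulated 3, against 2.05 to 9.64 CPM in the other 6. The 6 adipocyte markers, none at 0 in every library, summed to 18.5 to 46.8 CPM in blank, 20.5 to 64.9 CPM in SUI and 7.53 to 96.4 CPM in stimulated libraries. The 6 cartilage and tendon markers summed to 17.3 to 73.6, 13.7 to 27.6 and 23.2 to 39.0 CPM in the same order, with blank 3 highest. The part of these cells in the S100b values was not tested.

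**Figure D2:**
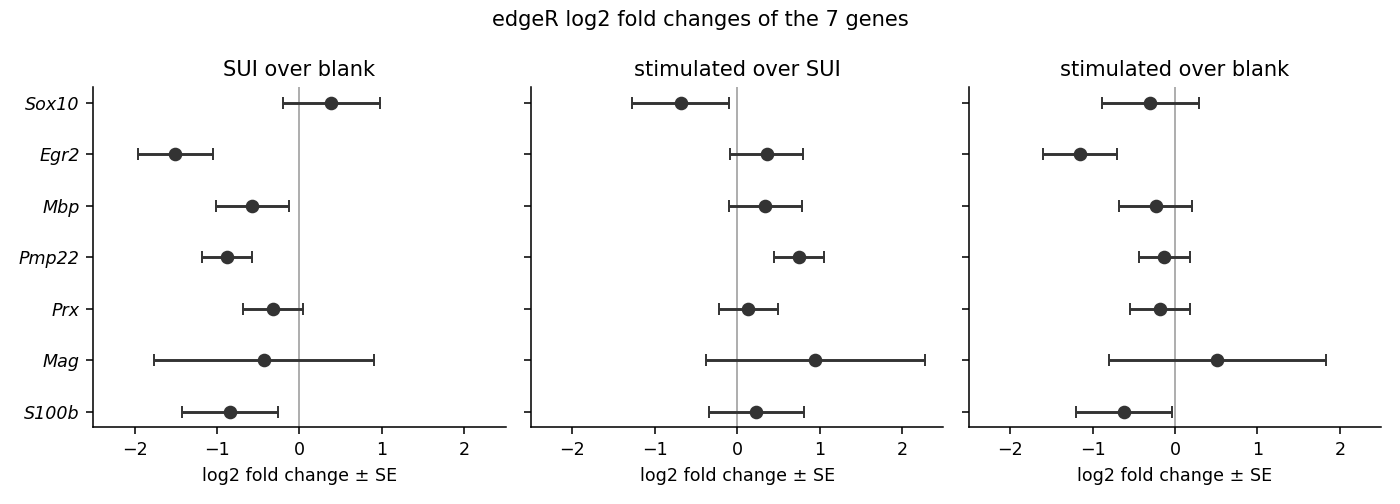
edgeR log2 fold changes with their SE for the 7 genes, 1 panel for each comparison, with a line at 0 for no difference. Egr2 and Pmp22 lie farthest from 0 relative to their SE in SUI over blank, and Mag has the widest SE at 1.33.

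In SUI over blank, 0 of the 7 genes were called by edgeR, beside 0.0% of the 16256 genes tested. At an unadjusted p under 0.05 there were 2, Egr2 and Pmp22, beside 8.18% of all genes, and DESeq2 and voom with sample weights called 0 of the 7 as well. In CPM the same 2 genes were the members whose SUI libraries all lay below all blank libraries, a count to set beside 7.77% of all genes. In FPKM this held for Egr2 but not for Pmp22. Of the 7 genes 0 had all SUI libraries above all blank ones in CPM, beside 7.34%. Their 6 negative and 1 positive fold changes had a median of -0.57, while the median over all genes was 0.01. Without blank 2, 4 were negative and 3 positive, with a median of -0.26. Without SUI 3, 6 were negative and 1 positive, with a median of -1.10, and S100b joined Egr2 and Pmp22 at an unadjusted p under 0.05.

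In stimulated over SUI, 0 of the 7 were called by edgeR, beside 0.0123% of all genes. One, Pmp22, had an unadjusted p under 0.05, beside 8.0% of all genes, and DESeq2 and voom called 0. No member had groups that did not overlap, which 9.52% of all genes had in the higher and 9.28% in the lower direction. Fold changes were positive for 6 and negative for Sox10, with a median of 0.34 beside 0.02 over all genes. Without SUI 2 there were 4 positive and 3 negative, with a median of 0.0081, and without stimulated 3 also 4 and 3, with a median of 0.17. Without SUI 3 they were 6 and 1, with a median of 0.78.

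In stimulated over blank, 0 of the 7 were called by edgeR, beside 0.00615% of all genes, and 0 by DESeq2 and voom. One, Egr2, had an unadjusted p under 0.05, beside 3.77% of all genes, and 0 had groups that did not overlap, which 7.9% of all genes had in the higher and 4.72% in the lower direction. Fold changes were negative for 6 and positive for Mag, with a median of -0.23 beside 0.04 over all genes. Without blank 2 this became 3 negative and 4 positive, with a median of 0.04. The 3 comparisons share libraries, so these counts are not independent of each other.

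**Figure D3:**
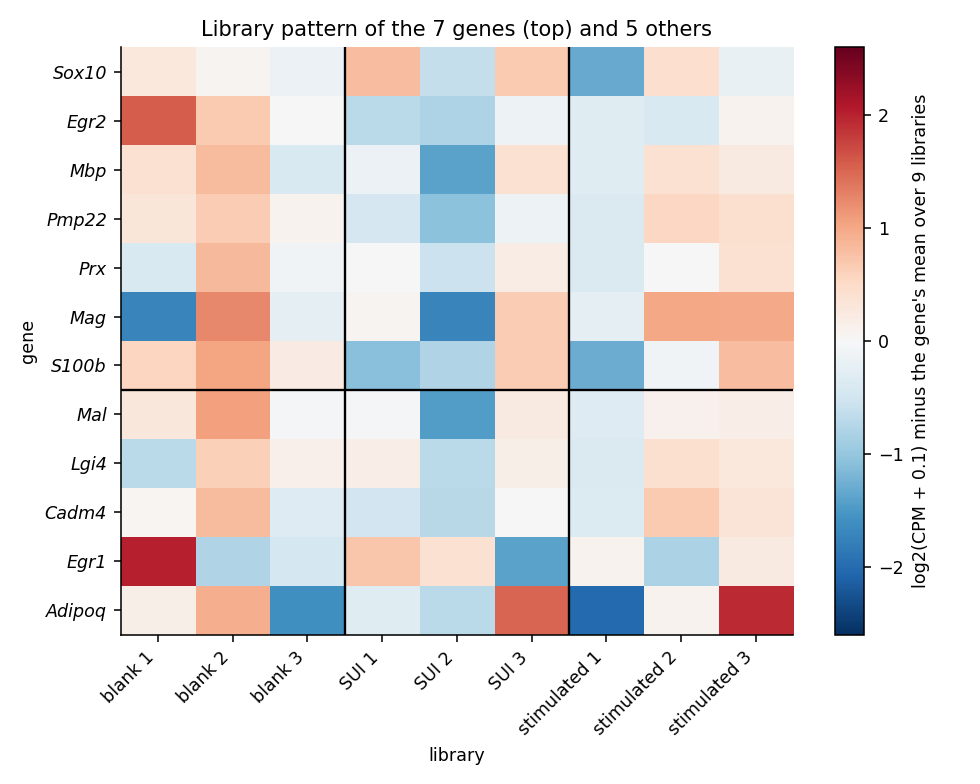
Deviation of each gene from its own mean over the 9 libraries, as log2(CPM + 0.1), for the 7 genes above the line and 5 others below it, which were chosen after their values were seen. Red is above the gene's mean and blue below it; SUI 2 is blue and blank 2 red for all 7 genes above the line.

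Libraries of 1 group differed in most members at once. Blank 2 was above the gene's own mean for 7 of 7 genes and the highest of all libraries for 5, namely Mbp, Pmp22, S100b, Prx and Mag. SUI 2 was above the mean for 0 of 7 and the lowest of all libraries for 5, namely Mbp, Pmp22, Prx, Egr2 and, tied at 0 counts, Mag. Stimulated 1 was lowest of its group for 6 of 7. Summed over the 7 genes the level was 86.0, 116 and 67.7 CPM in blank libraries, 54.6, 33.3 and 75.2 CPM in SUI libraries, and 51.3, 90.7 and 90.7 CPM in stimulated libraries. The sum, of which Pmp22 and Mbp are the greater part, thus overlapped between SUI and blank libraries and between SUI and stimulated libraries.

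Between pairs of members, Pearson's r of log2 CPM over the 9 libraries ran from -0.18 for Mag and Egr2 to 0.874 for Mbp and Pmp22. Prx and Mag, both outside compact myelin, had an r of 0.798, and Sox10 had its highest r, 0.510, with Mbp. Among 11245 genes with a mean CPM of at least 1, the 3 most like Mbp included Mal (r = 0.958), a proteolipid of myelin, and Chst7 (0.923). Those most like Pmp22 included Tirap (0.947) and RT1-Bb (0.927). Lgi4, a protein that Schwann cells secrete and need for myelination, was among the 3 most like both Prx (0.872) and Mag (0.932), which were led by Ndrg3 (0.934) and Plod1 (0.946). The genes most like S100b, Sox10 and Egr2 were Zfp534l2 (0.903), Pold3 (0.928) and Bbip1 (0.942), none of them known as a myelin gene. For the mean of the 7 members, Mal (0.944) came first, and Kiaa1755 (0.911), Frat1 (0.907) and Cadm4 (0.866), an adhesion protein of the Schwann cell membrane that faces the axon, were also among the first 10. The points share their library, its depth and its scaling, and these r are descriptions over 9 libraries.

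**Figure D4:**
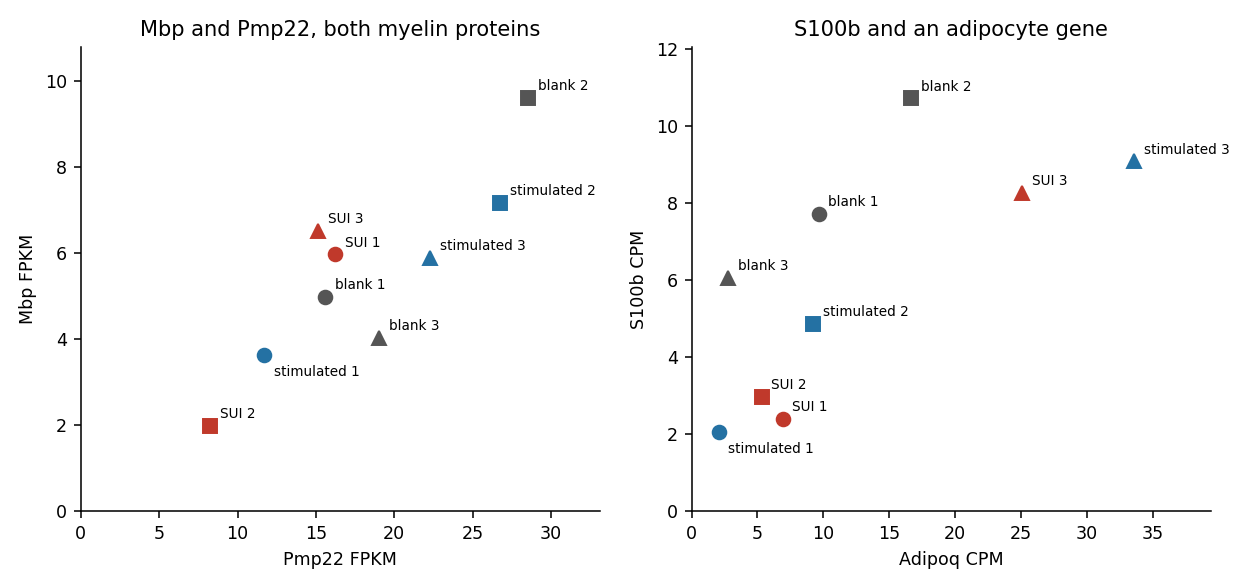
Left, Mbp against Pmp22 in FPKM, and right, S100b against the adipocyte gene Adipoq in CPM, with 1 point per library and the group in colour. Mbp and Pmp22 are lowest in SUI 2 and highest in blank 2, and S100b and Adipoq are both lowest in stimulated 1.

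A list of 8 myelin proteins, mostly of compact myelin and with Mbp and Pmp22 among them, all had negative fold changes in SUI over blank, with a median of -0.54 and 0 called by edgeR, DESeq2 or voom. Of these Pmp22 alone had an unadjusted p under 0.05 in edgeR, beside 8.18% of all genes. In stimulated over SUI all 8 were positive, with a median of 0.45 and 0 called by edgeR. There 2 had an unadjusted edgeR p under 0.05, beside 8.0% of all genes. In stimulated over blank 3 were positive and 5 negative, with a median of -0.05. Over all genes 50.8%, 52.6% and 54.3% of fold changes were positive in these 3 comparisons, with medians of 0.01, 0.02 and 0.04. Without SUI 2, 6 of 8 were positive in stimulated over SUI, with a median of 0.22. The 6 fibroblast markers had the same signs in the first 2 comparisons, with medians of -0.60 and 0.89, and 6 of 6 muscle fibre genes were positive in stimulated over SUI, with a median of 0.21, after 2 of 6 in SUI over blank. Their part in the myelin values was not tested. Cnp, an enzyme of the cytoplasm-filled, non-compact regions of myelin that other cells also make, had the smallest p of the list: it was at 14.1, 12.6 and 11.4 CPM in SUI and at 21.6, 21.0 and 19.3 CPM in stimulated libraries, without overlap. Its log2 fold change was 0.70 ± 0.18, with an adjusted p of 0.364 in edgeR and of 0.0110 in DESeq2, the 1 call of this list in any tool run. DESeq2 called 208 genes in this comparison, against 2 in edgeR. With library totals the value for Cnp was 0.55 ± 0.29 (adjusted p = 0.795, edgeR). On log2 FPKM limma gave adjusted p of 0.793 and 0.848 at pseudocounts of 1 and 0.1.

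Of the 14 tested genes of non-compact myelin and the node, Prx and Mag included, 10 were negative in SUI over blank. In stimulated over SUI 11 were positive, and the medians in these comparisons were -0.34 and 0.27. edgeR, DESeq2 and voom called 0 of the 14. Those with an unadjusted edgeR p under 0.05 numbered 1 and 2, beside 8.18% and 8.0% of all genes. Cntn1, an axonal adhesion protein of the paranode, was at 0.447 ± 0.244 CPM in SUI and 1.24 ± 0.376 CPM in stimulated libraries, with a log2 fold change of 1.47 ± 0.53 (adjusted p = 0.522, edgeR). Of the 15 tested Schwann cell transcription genes, Sox10 and Egr2 included, 10 were negative in SUI over blank. In stimulated over SUI 8 were negative, and in stimulated over blank 12. edgeR, DESeq2 and voom called 0 of the 15. An unadjusted edgeR p under 0.05 was reached by 2, 1 and 2 of them, beside 8.18%, 8.0% and 3.77% of all genes. Jun, which drives the repair state of Schwann cells but is active in many cells, was at 121, 165 and 85.3 CPM in SUI and at 73.9, 66.4 and 55.2 CPM in stimulated libraries. These did not overlap, with a log2 fold change of -0.93 ± 0.35 (adjusted p = 0.543, edgeR).

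A list of genes of non-myelinating and repair Schwann cells, the member S100b included, had 14 genes tested. In every comparison edgeR, DESeq2 and voom called 0 of them. In SUI over blank 9 of these 14 were negative, and 4 had an unadjusted p under 0.05, beside 8.18% of all genes: Scn7a, Gap43, Cdh2 and Ngfr. Blank 1, the library that stood apart, was highest of all 9 for Scn7a (10.7 CPM) and Cdh2 (1.51 CPM), and without it 0 of 15 tested genes of this list had an unadjusted p under 0.05 in edgeR. Gap43, a growth protein of axons and of Schwann cells that lost their axon, was at 4.10, 1.19 and 2.03 CPM in blank, 0.390, 1.02 and 0.339 CPM in SUI, and 1.21, 5.36 and 1.80 CPM in stimulated libraries. The SUI libraries lay below both other groups, by narrow steps. The log2 fold change was -2.05 ± 0.70 in SUI over blank (adjusted p = 0.549, edgeR) and 2.25 ± 0.70 in stimulated over SUI (adjusted p = 0.500, edgeR). Without blank 1 the former was -1.45 ± 0.73, and without stimulated 2 the latter was 1.36 ± 0.63. Ngfr, the low-affinity neurotrophin receptor, had a log2 fold change of -2.03 ± 0.83 in SUI over blank (adjusted p = 0.580, edgeR). Gfap was close to the limit of detection, at 0.0305, 0 and 0 CPM in stimulated and 0.0411 to 0.199 CPM in SUI libraries, where 0 counts allow up to 0.0210 CPM in stimulated 2 and 0.0234 CPM in stimulated 3.

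Among 14 tested receptors and signalling genes of Schwann cells, 7 were positive and 7 negative in each comparison, with medians of -0.10, 0.04 and -0.02. edgeR, DESeq2 and voom called 0 of them. An unadjusted edgeR p under 0.05 was reached by 0, 1 and 1, beside 8.18%, 8.0% and 3.77% of all genes. Lamb1, a laminin chain of the basal lamina that many cells make, was at 36.6, 18.3 and 31.2 CPM in SUI and 46.2, 90.3 and 60.0 CPM in stimulated libraries, without overlap, and had a log2 fold change of 1.19 ± 0.32 (adjusted p = 0.421, edgeR). RNA of the 10 axon genes can also come from muscle fibres and other cells, and the part of axons in it was not tested. The 10 summed to 8.82 to 10.4 CPM in blank, 3.55 to 8.76 CPM in SUI and 6.48 to 14.9 CPM in stimulated libraries. Of the 7 that were tested 3 were positive in SUI over blank and 5 in stimulated over SUI, with 0 called by edgeR, DESeq2 or voom. In each of these 1 gene had an unadjusted edgeR p under 0.05, beside 8.18% and 8.0% of all genes. It was Gap43 both times, already counted in the list of non-myelinating and repair Schwann cells. Of 8 tested perineurial and endoneurial genes, 2 were positive in SUI over blank and 5 in stimulated over SUI, with medians of -0.35 and 0.09. There 1 and 2 had an unadjusted edgeR p under 0.05, beside 8.18% and 8.0% of all genes, and edgeR called 0. Cldn1 had a log2 fold change of -0.50 ± 0.41 in stimulated over SUI. Abca8 had the smallest p of the list in both. It was at 4.55, 3.19 and 3.47 CPM in blank, 1.03, 1.77 and 1.62 CPM in SUI, and 3.61, 5.04 and 5.26 CPM in stimulated libraries. The SUI libraries lay below all others, with log2 fold changes of -1.34 ± 0.30 against blank (adjusted p = 0.371, edgeR) and of 1.65 ± 0.30 for stimulated over SUI (adjusted p = 0.225, edgeR). DESeq2 called Abca8 in both, with adjusted p of 0.00516 and 0.000134, and voom in the latter, with an adjusted p of 0.0271. Over all genes DESeq2 called 176 and 208 in these comparisons, and voom 48 in the latter. The fibroblast marker Cd34 had log2 fold changes of -1.39 ± 0.55 and 1.75 ± 0.56 in these comparisons, and the part of fibroblasts in the Abca8 values was not tested.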

How the data were processed

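RNA sequencing of the pubococcygeus gave 9 libraries, grouped by their titles, with one library per replicate number. The genome build mRatBN7.2 and the tools Bowtie2, RSEM 1.3.1 and DESeq2 1.4.5 are named in the submitters' processing notes (strand use: not given in the sources used here). Expected counts, per the file headers, were deposited by the authors as whole numbers and look rounded up, since 358 counts of 1 have an FPKM under 0.001. The FPKM values were deposited by the authors, and this unit is by definition scaled by gene length and library size. Of 30518 rows 4341 have no symbol, and a symbol on several rows was given to the row of highest mean count.

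Counts were filtered with filterByExpr, scaled by TMM and tested with edgeR 4.0.16 in R 4.3.3 (quasi-likelihood F test, robust, all 9 libraries in one fit). The p-values were adjusted over 16256 genes by Benjamini-Hochberg at 0.05, with SE as the size of the log2 fold change over the square root of F. The steps were tested on simulated data. Depth makes 3 counts worth 0.021 to 0.0794 CPM.

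The members and the 16 gene lists were chosen with earlier results of these data known, and list genes are described by counts and medians only. Of 155 list genes 153 matched (not Nrcam and Gas1) and 135 were tested. Some genes that the naming rule reaches are not reported here. Named are the members, up to 4 list genes per comparison by smallest p, the 3 genes most correlated with each member and the 10 most correlated with their mean (log2 CPM, prior count 2). Other names, such as Egr1, Egr3 and per-library values of marker genes, were added after their values were seen. Promoter sequences are from RefSeq, GRCr8. The alternatives changed the scaling (DESeq2 size factors or library totals), the filter (none, or a mean CPM of 1), the tool (DESeq2 1.42.0, or limma 3.58.1 as voom with sample weights), the unit (log2 FPKM with a pseudocount of 1 or 0.1) or the design (6 libraries, a replicate block, each library left out).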

Additional observations from a re-analysis of the deposited data

How the results depend on the processing

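The 7 genes were never called, by any of the 19 alternatives in any comparison. Of 393 member fold changes under alternatives, 376 kept their sign and 17 turned it, 14 of them on leaving out a library. Counts of called genes moved most with DESeq2, to 176, 208 and 21 in SUI over blank, stimulated over SUI and stimulated over blank, from 0, 2 and 1 in edgeR. In stimulated over SUI they were 48 with voom, 1 with library totals, 1 with the replicate block, and 0 with the 6 libraries compared and with FPKM at either pseudocount. In stimulated over blank they were 0 with the 6 libraries, with the block and with FPKM at a pseudocount of 1. Leaving out each library gave 0 to 1, 0 to 3 and 0 to 1. With library totals the median over all genes was 0.19, -0.11 and 0.09.

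Leaving out each library gave, in SUI over blank, -1.01 to -0.23 for Mbp, -1.10 to -0.68 for Pmp22, -1.61 to -0.56 for S100b, 0.11 to 0.73 for Sox10, -1.82 to -0.96 for Egr2, -0.54 to 0.15 for Prx and -1.26 to 1.14 for Mag. In stimulated over SUI it gave -0.016 to 0.78 for Mbp, 0.53 to 0.98 for Pmp22, -0.39 to 0.99 for S100b, -1.24 to -0.29 for Sox10, 0.37 to 1.78 for Mag, 0.17 to 0.63 for Egr2 and -0.080 to 0.31 for Prx. In stimulated over blank it gave -0.50 to 0.081 for Mbp, -0.30 to 0.10 for Pmp22, -1.24 to -0.23 for S100b, -1.46 to -0.63 for Egr2, -0.86 to 0.10 for Sox10, -0.43 to 0.29 for Prx and -0.016 to 2.08 for Mag. With FPKM, Prx was at -0.0034 and -0.0046 in stimulated over SUI (pseudocounts 1 and 0.1). The cause was not tested. A mean CPM of 1 removed Sox10 and Mag, which have no value there.

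The replicate block turned Mag to 0.25 in SUI over blank, changed no call of a member and left 0, 1 and 0 genes called. The labels share only a number: deviations of same-numbered libraries correlated at -0.218 to 0.113, and 0 of 9 libraries correlated best with their own number. Mag had 0 counts in 2 libraries, blank 1 with a total of 50833480 counts and SUI 2 with 110699836. SUI 1, with a total of 87163057, had 28 counts of Mag. The cause of the 0 in SUI 2 was not tested.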

Other observations

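Myelin is rich in cholesterol and long-chain lipids, and 21 genes of their synthesis were tested, of which edgeR called 0 in each comparison. An unadjusted edgeR p under 0.05 was reached by 3, 1 and 1 of them, beside 8.18%, 8.0% and 3.77% of all genes. DESeq2 called 1, Sqle in SUI over blank, where it called 176 of all genes, and voom called 0 of the list. Positive fold changes were 9, 13 and 13 of 21 in SUI over blank, stimulated over SUI and stimulated over blank, with medians of -0.09, 0.13 and 0.14 beside 0.01, 0.02 and 0.04 over all genes. Sqle, an early enzyme of the sterol branch, was at 2.11 ± 0.0384 CPM in blank and 1.13 ± 0.174 CPM in SUI libraries, without overlap. On the log2 scale this was -0.90 ± 0.28, with an adjusted p of 0.524 in edgeR and 0.0477 in DESeq2. Lss, which closes the sterol ring, was at 4.63 ± 2.45 CPM in blank, 9.38 ± 2.09 CPM in SUI and 5.11 ± 0.887 CPM in stimulated libraries, so that these 2 enzymes of the same branch had opposite signs. Fasn, the fatty acid synthase that adipocytes also make in quantity, was at 90.0 CPM in SUI 3 and 73.6 CPM in stimulated 3, against 5.64 to 17.6 CPM in the other 7 libraries. Both are the libraries where Adipoq was highest, at 25.1 and 33.6 CPM, and the part of adipocytes in the Fasn values was not tested.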
